A study of Mus musculus with 16 samples.

Results

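Transcripts of 9 surface protein genes, Ifitm1, Ifitm2, Ifitm3, Ifitm6, Ly6a, Ly6c1, Ly6c2, Ly6e and Ly6i, were followed across classes of immune cells from mouse tumors, with and without radiation. They were taken by gene name from the 31053 features of each library, and all 9 were found. Single-cell RNA sequencing was run on live CD45+ cells from subcutaneous flank tumors of C57BL/6J mice. The 4 groups of 4 libraries each were untreated (NT) MC38, irradiated (RT) MC38, untreated Panc02-SIY and irradiated Panc02-SIY. MC38 is a colorectal carcinoma line that the study treats as radioimmunogenic, and Panc02-SIY, a line of pancreatic adenocarcinoma that carries the model antigen SIY, is treated as poorly radioimmunogenic. RT tumors received a single CT-guided dose of 12 Gy and were harvested 24 h later. All 4 groups share the host strain, the implantation site and the sort, and each tumor is 1 transplanted line. The sort for CD45 aims at leukocytes of the host, but clusters led by non-leukocyte genes were also found, as given below. The sources give different numbers of animals per group and tie no library to an animal, so every p-value below measures the spread between libraries, which may be technical.

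The interferon-induced transmembrane (Ifitm) proteins sit in plasma and endosomal membranes and are best known for restricting the entry of enveloped viruses. Most members are induced by interferons through short DNA elements near their start sites. Ifitm6 is a less studied member found in rodents. The Ly6 proteins are small, GPI-anchored surface proteins. Ly6a is the Sca-1 antigen of stem cells and activated lymphocytes, Ly6c1 and Ly6c2 encode the Ly-6C antigen that marks inflammatory monocytes and some T cells, and Ly6e restricts the entry of several viruses. Ly6c1 is also known as a transcript of endothelial cells.

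The members lie in 2 gene clusters. In GRCm38 with the GENCODE vM21 annotation, Ifitm2 (140954837 to 140955987, minus strand), Ifitm1 (140967221 to 140969825, plus strand), Ifitm3 (141009586 to 141010770, minus strand) and Ifitm6 (141015699 to 141017924, minus strand) span 63.1 kb of chromosome 7. Ly6e (74955051 to 74959905, plus strand), Ly6i (74979534 to 74983430), Ly6a (74994877 to 74998031), Ly6c1 (75044018 to 75048830) and Ly6c2 (75108158 to 75111970), the last 4 on the minus strand, span 157 kb of chromosome 15. The libraries count transcripts from their 3′ end, so near-identical ends matter. In the last 500 bases of their transcripts, 41.9% of the 50-base stretches of Ifitm2 were also found in transcripts of other genes, as were 20.6% of those of Ly6c2 and 19.96% of those of Ly6c1 (each shared with the other), 13.97% for Ifitm3, 11.7% for Ifitm1, 4.43% each for Ly6a and Ly6i, and 0 for Ifitm6 and Ly6e. Counts of Ifitm2, Ly6c1 and Ly6c2 are the most uncertain of the 9 for that reason.

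Promoter sequence is shown for the members whose start sites hold a match to an interferon-responsive element, since interferon response is what the family is known for. RefSeq promoter windows of GRCm38.p6, from 250 bases before to 50 bases after the start, were at hand for 6 of the 9 members: Ifitm1, Ifitm2, Ifitm3, Ifitm6, Ly6c1 and Ly6c2. The motifs searched on both strands were GAAA followed, after any 2 bases, by GAAA again, called ISRE-like here, which 3.44% of 32851 such windows held, and TTCNNNGAA, called GAS-like here, which 8.30% held. Ifitm3 held 2 ISRE-like matches and 1 GAS-like match that overlaps the second of them, Ifitm2 held 1 ISRE-like match and Ifitm6 held 1 GAS-like match. The windows of Ifitm1, Ly6c1 and Ly6c2 did not hold these letters. Each match is given below on the minus strand with 10 or 11 bases on either side and the matched letters in capitals.
Ifitm2, ISRE-like, chr7:140955988-140956017: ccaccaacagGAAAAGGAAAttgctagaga
Ifitm3, first ISRE-like, chr7:141010723-141010752: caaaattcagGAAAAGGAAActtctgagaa
Ifitm3, second ISRE-like, chr7:141010706-141010735: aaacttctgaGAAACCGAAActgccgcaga
Ifitm3, GAS-like, chr7:141010712-141010741: aaaaggaaacTTCTGAGAAaccgaaactgc
Ifitm6, GAS-like, chr7:141016883-141016912: ccatatgaacTTCCTTGAAacaagagcttc
The Ifitm2 match begins 46 bases before the start, that of Ifitm6 begins 10 bases before it, and the Ifitm3 matches begin at bases 3, 20 and 14 of the transcript. These starts are those of RefSeq and differ from the GENCODE gene bounds given above. The Ifitm6 match lies inside the GENCODE span of that gene, downstream of its GENCODE start.

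Ly6c1 and Ly6c2 are shown together because they encode variants of the same antigen and share 3′ sequence, yet had unlike levels. The 250 bases before each start were aligned, and 170 of the 284 columns of the alignment (59.9%) were identical. Capitals mark the bases that were not identical in the alignment, on the minus strand.
Ly6c1, chr15:75048838-75049087: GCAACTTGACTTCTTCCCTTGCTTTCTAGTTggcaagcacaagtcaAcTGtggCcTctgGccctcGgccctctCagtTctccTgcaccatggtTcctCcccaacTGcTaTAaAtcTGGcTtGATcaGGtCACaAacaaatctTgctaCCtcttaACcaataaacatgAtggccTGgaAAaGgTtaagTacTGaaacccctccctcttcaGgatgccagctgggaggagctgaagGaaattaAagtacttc
Ly6c2, chr15:75111972-75112221: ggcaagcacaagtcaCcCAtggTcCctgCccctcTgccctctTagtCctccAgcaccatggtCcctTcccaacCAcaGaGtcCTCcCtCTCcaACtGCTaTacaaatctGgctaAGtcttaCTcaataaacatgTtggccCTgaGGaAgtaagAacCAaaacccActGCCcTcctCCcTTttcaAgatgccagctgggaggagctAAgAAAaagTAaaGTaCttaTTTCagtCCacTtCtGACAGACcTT

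MC38 libraries held 3240877 to 10121198 unique molecular identifiers (UMIs) and Panc02-SIY libraries 5327146 to 43776342. The libraries of 1 tumor shared cell barcodes, and the median pair had 83.3% of barcodes in common in MC38 but 5.54% in Panc02-SIY. A barcode found in several libraries of a tumor was therefore kept only in the one where it had most UMIs, which left 20768 of 28678 barcodes and 174992790 of 187735117 UMIs. The loss was unequal: the copies removed held 13.6% to 57.2% of the UMIs of an MC38 library and 0.154% to 0.975% of a Panc02-SIY library. After it, MC38 libraries held 147 to 609 barcodes and 1385711 to 8500889 UMIs. Panc02-SIY libraries held 1113 to 4452 barcodes and 5275195 to 43708746 UMIs. Barcodes were assigned to a class when at least 3 of its 8 marker genes had a UMI, with a lead of 2 markers over every other class, and 15508 (74.7%) met this rule. No member was a marker. The macrophage gate held 605, 414, 1667 and 1009 barcodes in MC38 NT, MC38 RT, Panc02-SIY NT and Panc02-SIY RT, the monocyte gate 53, 102, 100 and 405, and the NK gate 36, 65, 665 and 1172. Their median UMIs per barcode were 25300, 20160, 2352 and 3446 in the macrophage gate and 14350, 13620, 9998 and 9973 in the monocyte gate. Neutrophils, type 1 conventional dendritic cells (DC1) and the T and B cells could be tested in Panc02-SIY only. The sorted cells included 3 clusters led by non-leukocyte genes, and values without them are given beside several of the macrophage and monocyte results they move. Levels set side by side between classes are CPM, the UMIs of a gene as a part of all UMIs summed over a class in a library, on the usual scale. Levels set side by side between groups of 1 class, and the tests on them, use the same sums with library sizes scaled by TMM. Whether the libraries of 2 groups overlapped is given as a description. The share of all genes whose groups did not overlap was not computed.

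The Ifitm genes were myeloid and T cell transcripts whose order over classes differed by member. In untreated Panc02-SIY, Ifitm3 was highest in the monocyte gate, with a median of 5537 CPM over 4 libraries (range 4823 to 6103). That range did not overlap neutrophils, the next class, at a median of 1730. Conventional CD4 T cells (712), macrophages (575, or 367 without the non-leukocyte clusters), other T cells (268), CD8 T cells (208), DC1 (148), regulatory T cells (107) and NK cells (93.8) followed, each overlapping its neighbor, and B cells were lowest at 16.5. Ifitm2 led in neutrophils at 2540, without overlap with monocytes at 1718, which in turn overlapped conventional CD4 T cells at 1414. Ifitm1 had the opposite place for monocytes. It was highest in conventional CD4 T cells (1855), neutrophils (1466) and CD8 T cells (1186), whose ranges overlapped, and stood at only 76.7 in monocytes and 35.5 in macrophages. Ifitm6 was nearly limited to monocytes at 676 and neutrophils at 114, whose ranges did not overlap, with macrophages next at 7.33. In untreated MC38 the order of the 3 classes with enough barcodes was the same for Ifitm3, at 4486 in monocytes, 1694 in macrophages and 102 in NK cells, with no overlap between them.

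Among the Ly6 genes, Ly6a was highest in T cells in Panc02-SIY and, of the 3 classes with enough barcodes, in macrophages in MC38. Untreated Panc02-SIY regulatory T cells held a median of 1662 CPM (range 1618 to 2499), above conventional CD4 T cells at 1364. Macrophages held 338, monocytes 227 and NK cells, the lowest class, 67.5. In untreated MC38 macrophages led at 885, above monocytes at 477 and NK cells at 38.8 without overlap. In untreated Panc02-SIY, Ly6c2 was highest in monocytes (1832) and other T cells (1294), which overlapped. CD8 T cells (577) followed, and macrophages (20.6) were lowest. In the same group Ly6e was broad, at 1969 in monocytes, 1952 in macrophages and 1831 in B cells, with NK cells at 649 and CD8 T cells at 502. Ly6i was there a low transcript of monocytes (181) and neutrophils (128), whose ranges overlapped. Ly6c1 stayed at or below 10.5 in every class of untreated Panc02-SIY, and stood at 15.99 in its RT macrophage gate. In untreated MC38, macrophages held 284 of Ly6c2, above NK cells at 97.1. In RT Panc02-SIY the dendritic cells with a mature regulatory marker profile (mregDC) held the lowest Ly6e of any class, at 41.1 (range 40.4 to 43.9), with NK cells next at 441.

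**Figure D1:**
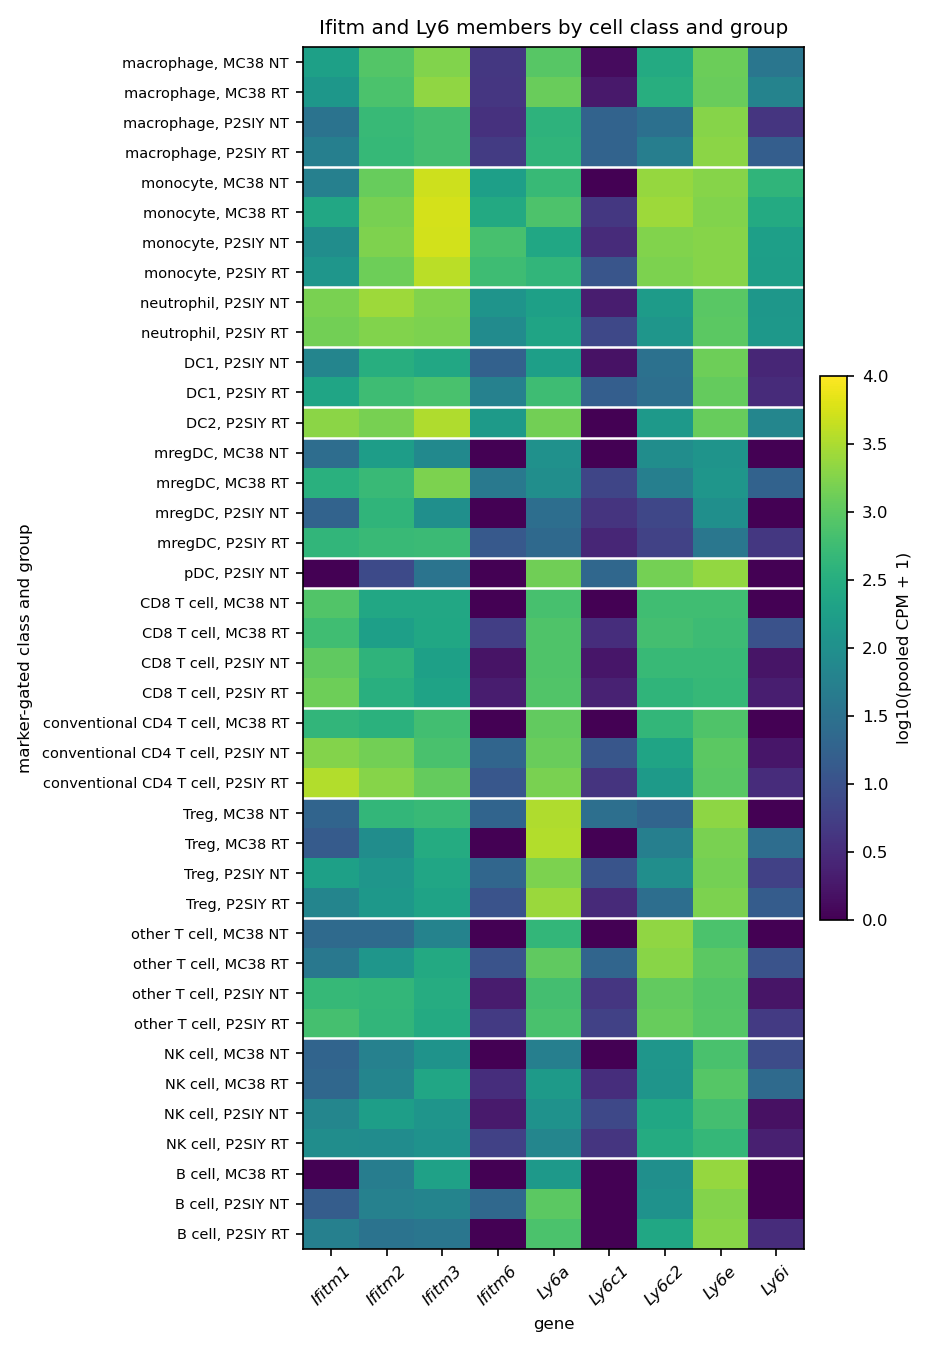
Level of the 9 members (columns) by gated class and group (rows, with P2SIY for Panc02-SIY), as the log10 of CPM + 1 of counts pooled over the libraries of a group. Ifitm3 and Ifitm6 are brightest in the monocyte rows, Ifitm1 in rows of Panc02-SIY conventional CD4 T cells, CD8 T cells, neutrophils and type 2 dendritic cells, Ly6a in the regulatory T cell (Treg) rows, and Ly6c1 is dark throughout.

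Over the 40 class and group profiles, the members most like each other were Ifitm2 and Ifitm3 (Pearson r = 0.858), Ifitm3 and Ly6i (0.786) and Ifitm3 and Ifitm6 (0.777). Ly6a and Ly6e stood at 0.637 and Ly6c1 and Ly6c2 at -0.089. Profiles share libraries and depth, so these are descriptions. Among 8212 genes, those most like Ifitm3 after Ifitm2 were Mefv (0.837) and Ccl6 (0.830), and those most like Ly6i were Upp1 (0.859), Ccl6 (0.856) and F10 (0.838). Vav1 (0.862) was the gene most like Ly6e, Gbp6 (0.761) the one most like Ly6a, Gm9733 (0.808) the one most like Ifitm6, Klf13 (0.672) the one most like Ly6c2, and Crip2 (0.599) the one most like Ly6c1.

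The first question was whether radiation moved these genes within a class. In Panc02-SIY, Ifitm1, Ifitm3 and Ly6a rose in DC1, the dendritic cells that cross-present antigen to CD8 T cells. These were the 3 of 67 gene and class pairs called, that is past a fold of 1.3 with p under 0.1 after Benjamini-Hochberg adjustment in the edgeR quasi-likelihood test. Of all gene and class pairs 2.61% were called, and of DC1 genes 1.13%, with 0.776% higher in RT. Ifitm1 held 108, 78.1 and 51.7 CPM in the 3 NT libraries and 337, 358 and 194 in the 3 RT libraries. Every RT library was above every NT library, and the log2 fold change was 1.90 with an SE of 0.32 (edgeR adjusted p = 0.0177). Ifitm3 held 130, 156 and 313 CPM in NT and 803, 492 and 855 in RT, again without overlap, and differed by 1.79 on the log2 scale (SE 0.32, edgeR adjusted p = 0.0318). Ly6a held 220, 138 and 216 CPM in NT and 359, 408 and 762 in RT, also without overlap, and differed by 1.43 on the log2 scale (SE 0.28, edgeR adjusted p = 0.0331). Ifitm2 held 288, 313 and 366 CPM in NT and 704, 358 and 686 in RT, where 1 RT library lay within the NT range, and was not called (0.85, SE 0.24, edgeR adjusted p = 0.146). Ly6e (-0.23, adjusted p = 0.784) and Ly6c2 (-0.26, adjusted p = 0.911), by the same edgeR test, were not called either. Ifitm6 did not pass the filter on low counts in DC1, with 0, 0 and 26.4 CPM in NT and 138, 22.4 and 52.8 in RT, and Ly6c1 and Ly6i did not pass it either.

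**Figure D2:**
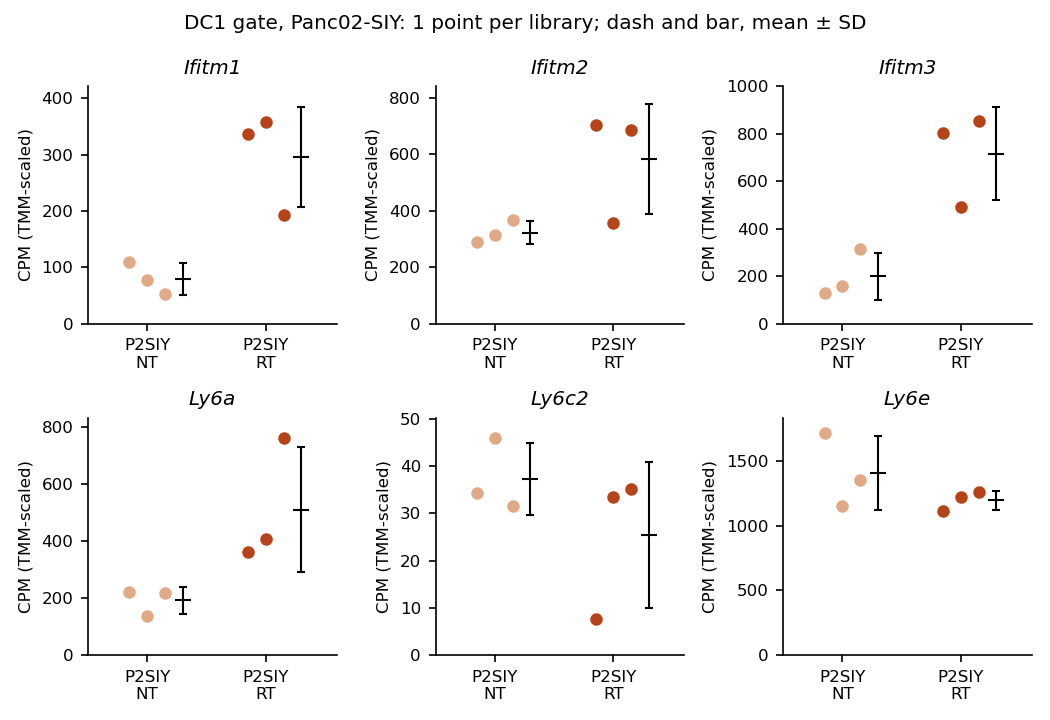
TMM-scaled CPM of 6 members in Panc02-SIY DC1 by library (points) with the group mean ± SD, untreated and irradiated, 3 libraries each. For Ifitm1, Ifitm3 and Ly6a all RT points lie above all NT points, with means of 79.4 and 296, 200 and 717, and 191 and 510 CPM.

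The DC1 gate rested on few barcodes, 15 to 43 per NT library and 10 to 30 per RT library. Its own 8 markers summed to 4315 to 5315 CPM in NT and 3451 to 5105 in RT, with none at 0. Monocyte markers moved with the result: their summed level was 260 to 550 CPM in NT and 1018 to 1293 in RT. Of the 8 monocyte markers 3 were at 0 in each group, and the rise was carried by Plac8, at 238, 436 and 494 CPM in NT and 823, 973 and 1064 in RT, and by Ccr2, at 4.36 to 24.0 in NT and 57.8 to 284 in RT. The macrophage markers summed to 122 to 453 CPM in NT and 35.5 to 145 in RT, and the fibroblast markers, pooled over libraries, to 0.566 in NT and 143 in RT. Markers of type 2 dendritic cells, whose list shares Flt3 and Zbtb46 with that of DC1, summed to 443.5 to 566.5 in NT and 535 to 703 in RT. The part of these markers in the rise was not tested. Between NT and RT the share of DC1 barcodes with a UMI of Ifitm3 went from 40.2% to 83.0%, at median depths of 17950 and 14610 UMIs. It went from 15.3% to 41.9% with barcodes thinned to 1000 UMIs. Thinned shares here and below leave out barcodes with fewer than 1000 UMIs, and unthinned shares keep them. Both pool the barcodes of a group, so libraries with many barcodes weigh most. In DC1 1 library held 43 of the 92 NT barcodes and 1 held 30 of the 53 RT barcodes. The B cell gate of the same tumor, where Ifitm3 is low, held a share of 10.5% and 9.76%, thinned 3.06% and 3.05%, at 3798 and 3291 UMIs. For Ifitm1 the thinned DC1 share went from 6.26% to 14.8% and for Ly6a from 14.5% to 27.4%. The single barcode richest in Ifitm1 held 24.8% of its NT and 21.5% of its RT UMIs. Without NT replicate 2 the calls of Ifitm3 (1.55, edgeR adjusted p = 0.134) and Ly6a (1.52, adjusted p = 0.182) ended, as did that of Ly6a without RT replicate 4 (0.98, adjusted p = 0.132), while Ifitm1 kept its call with any library left out. Ifitm2 was called without RT replicate 3 (1.10, edgeR adjusted p = 0.0454), and Ifitm6 passed the filter and was called without NT replicate 4 (adjusted p = 0.0585), when the NT libraries left were both at 0. With classes taken from graph clusters instead of gates, all 3 calls ended, with edgeR adjusted p-values of 0.637 for Ifitm1 (0.96), 0.583 for Ifitm3 (0.67) and 0.186 for Ly6a (0.78). The cluster that stood for DC1 there was a mixed one. It was led by immunoglobulin genes, Cd209a, Cst3, Wdfy4 and Ccl17, 53.6% of its gated barcodes were DC1, and it also held gated type 2 and plasmacytoid dendritic cells. Of the DC1-gated Panc02-SIY barcodes, 63.0% in NT and 79.25% in RT lay in it. A cluster led by Fscn1, Ccr7 and Ccl22, with mregDC as its most frequent class, held 26.1% in NT and 13.2% in RT. The part of this shift in the rise was not tested. The type 2 dendritic cell gate of Panc02-SIY held 4 barcodes in NT and 38 in RT, and 94.7% of the latter lay in the mixed cluster. Of those 38, 31 met the gate's rule only at its limit. Levels of the 3 genes in that gate and in mregDC are given below as pooled values. In MC38 only 8 NT and 6 RT barcodes met the DC1 rule, so the same comparison was not run there.

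In the other Panc02-SIY classes no member was called by radiation, where 2.84% of genes were called in macrophages, 0% in monocytes, 0.06% in neutrophils, 5.73% in CD8 T cells, 0.456% in conventional CD4 T cells, 0.117% in regulatory T cells, 6.44% in other T cells, 0.607% in NK cells and 0.943% in B cells. Over all 67 pairs 34 fold changes were positive, 10 had an unadjusted p below 0.05 by edgeR, and DESeq2 called 7. Genes with an unadjusted edgeR p below 0.05 were 1533 of 10108 in macrophages, 480 of 5439 in monocytes, 357 of 4996 in neutrophils and 386 of 4253 in DC1. In CD8, conventional CD4, regulatory and other T cells they were 2016 of 11615, 487 of 6138, 144 of 2568 and 1511 of 8651. In NK and B cells they were 756 of 8073 and 171 of 1591. The share of all genes that DESeq2 called was not computed, here or below. Neutrophil Ifitm2 held 2892, 2339, 2383 and 3003 CPM in NT and 1694, 2135, 1404 and 1968 in RT. The RT libraries all lay below the NT libraries, but at an edgeR adjusted p of 0.452 (-0.56, SE 0.15) it was not called. Monocyte Ifitm3 was also lower in each RT library, at 3768, 4868, 3045 and 3862 CPM against 5885, 5256, 4877 and 6377 in NT (-0.53, SE 0.15, edgeR adjusted p = 0.249). Without RT replicate 2 it was called (-0.65, edgeR adjusted p = 0.0587). Macrophage Ly6c2 held 9.40, 41.8, 12.1 and 25.7 CPM in NT and 74.2, 85.9, 69.2 and 32.3 in RT, where RT replicate 4 lay within the NT range (1.25, SE 0.46, edgeR adjusted p = 0.211). Without that library it was called (1.56, edgeR adjusted p = 0.0891). Macrophage Ifitm3 was not called (0.17, SE 0.26, edgeR adjusted p = 0.848). Its median before TMM scaling was 575 CPM in NT and 663 in RT, and 367 and 565 without the non-leukocyte clusters. Without them the libraries ranged from 327 to 600 in NT and from 485 to 651 in RT, which overlapped.

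The T cells of Panc02-SIY varied widely between RT libraries. CD8 T cell Ifitm1 held 1163, 1420, 1286 and 903 CPM in NT and 1323, 2713, 984 and 664 in RT, so that the RT libraries bracketed all the NT libraries. Conventional CD4 T cell Ifitm1 spread further, from 402 to 6959 in RT against 792 to 2745 in NT. In both classes RT replicate 2 was the highest. Without it, Ifitm2 was called lower in RT in CD8 T cells (-0.61, edgeR adjusted p = 0.0838) and other T cells (-0.99, adjusted p = 0.00352). Ly6a of regulatory T cells held 2044, 3001 and 2106 CPM in NT and 2557, 3049, 3116 and 2726 in RT, which overlapped.

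In MC38, none of the 23 member and class pairs was called by radiation, where 4.66% of all gene and class pairs were called, as were 10.7% of macrophage, 0.0184% of monocyte and 0.211% of NK genes. By edgeR 4 pairs had an unadjusted p below 0.05, DESeq2 called 0, and 20 of 23 fold changes were positive. Of all genes, 2156 of 10108 in macrophages, 305 of 5439 in monocytes and 614 of 8073 in NK cells had such an edgeR p. The median log2 fold change of all genes was 0.038, 0.0039 and 0.033 in these classes. Macrophage Ifitm3 held 1583, 1721, 1979 and 1736 CPM in NT and 2485, 3202, 1776 and 2507 in RT, with 1 RT library inside the NT range (0.51, SE 0.25, edgeR adjusted p = 0.266). Macrophage Ly6a held 855, 1412, 666 and 943 in NT and 1207, 1988, 964 and 1406 in RT (0.52, SE 0.27, edgeR adjusted p = 0.284). Monocyte Ifitm2 held 1155, 1332 and 1297 in the 3 NT libraries with enough barcodes and 2366, 1905, 1938 and 1201 in RT (0.54, SE 0.19, edgeR adjusted p = 0.674). Monocyte Ly6a was higher in each RT library, at 657, 919, 974 and 748 against 580, 548 and 493 (0.62), but was not called. In simulated data the macrophage fit recovered 79.3% of MC38 genes changed 2-fold and 99.0% of those changed 4-fold, so smaller changes could be missed. Recovery of radiation effects in MC38 monocytes and NK cells was not tested. Between irradiated tumors the monocyte fit recovered 63% at 2-fold and 97.8% at 4-fold. In MC38 macrophages the radiation SE was 0.75 for Ifitm1, 0.83 for Ifitm6, 0.84 for Ly6c1 and 0.68 for Ly6i. It was 0.13 to 0.36 for the other members, and recovery was not tested for each member. The radiation check genes Cdkn1a, Phlda3 and Ccng1, targets of p53, were called higher in macrophages of both tumors, with Cdkn1a at a log2 fold change of 2.32 in MC38 and 3.58 in Panc02-SIY. Cdkn1a was also called in NK cells of both tumors and in Panc02-SIY neutrophils and T cell classes. In monocytes no check gene tested was called in either tumor. Cdkn1a stood there at 0.43 in MC38 (edgeR adjusted p = 0.910) and 0.65 in Panc02-SIY (adjusted p = 0.570). In Panc02-SIY DC1 Ccng1 was called (1.43, edgeR adjusted p = 0.0591) and Cdkn1a was not (3.44, adjusted p = 0.271).

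**Figure D3:**
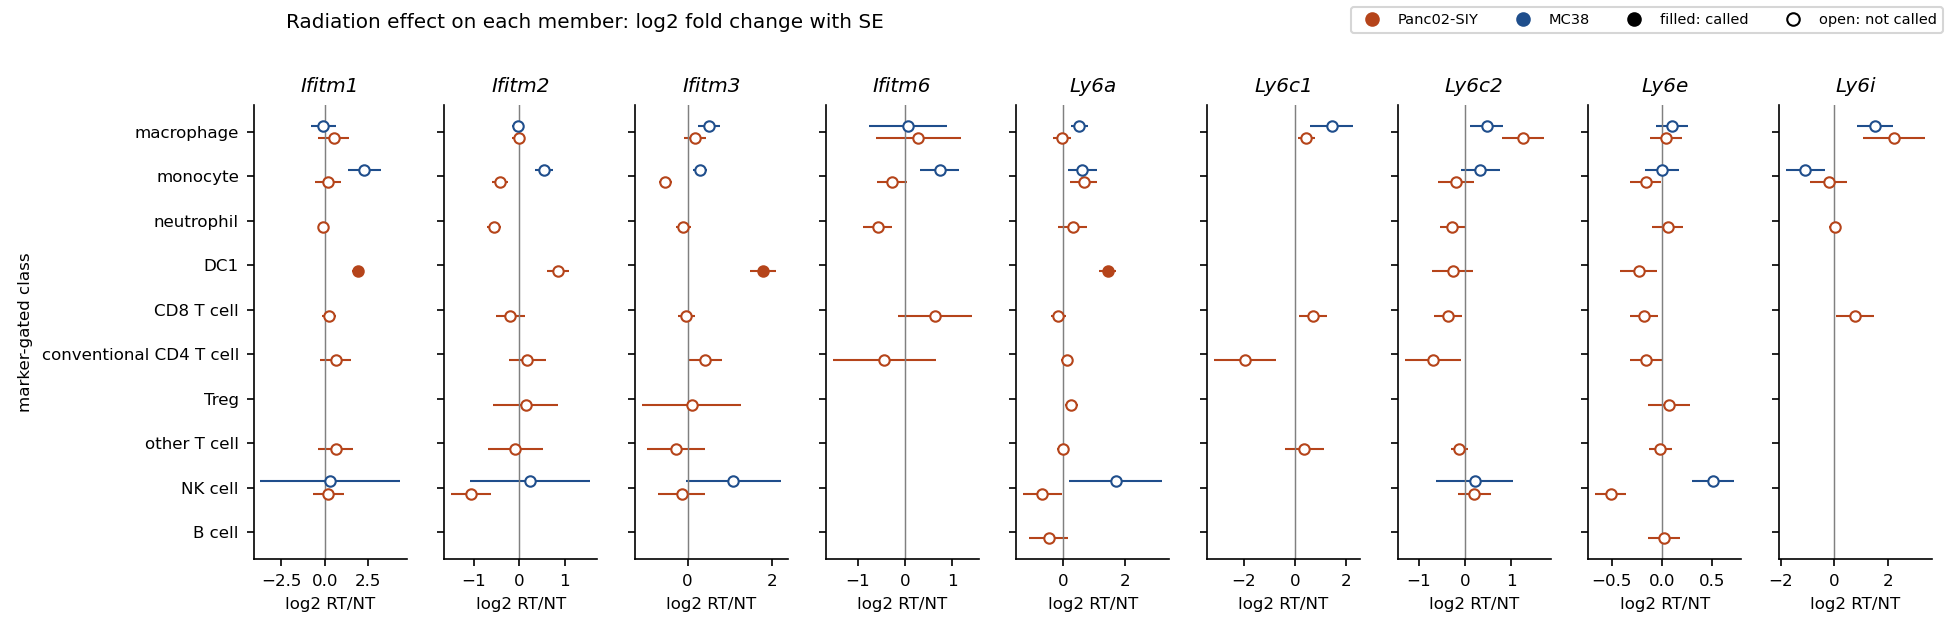
Log2 fold change of RT over NT (horizontal axis, bars ± SE) for each member by class in both tumors, with filled points for pairs called and an axis range of its own for each gene. The filled points are Ifitm1, Ifitm3 and Ly6a in Panc02-SIY DC1, at 1.90, 1.79 and 1.43.

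The second question was how the members differed between the tumors. Macrophages of MC38 held more Ifitm1, Ifitm2, Ifitm3, Ly6a, Ly6c2 and Ly6i than those of Panc02-SIY before radiation, and less Ly6e. Ly6c1 was also lower in the MC38 macrophage gate, from UMIs that in Panc02-SIY lay mostly in non-leukocyte clusters, as given with that gene. Of the 23 pairs in macrophages, monocytes and NK cells, 9 were called between untreated tumors (6 higher and 3 lower in MC38), where 25.2% of all gene and class pairs (12.1% higher and 13.1% lower) and 42.9% of macrophage genes were called. Between irradiated tumors 12 were called (10 higher and 2 lower), where 31.8% of all pairs (15.4% higher and 16.4% lower) and 44.7% of macrophage genes were. With all barcodes kept in every library the counts were 10 and 15. The background share is high, so a call here sets a member apart from few other genes.

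Ifitm3 showed the pattern most plainly among the Ifitm genes. The NT libraries of Panc02-SIY held 950, 364, 402 and 650 CPM and its RT libraries 830, 670, 521 and 601. The MC38 values given above, 1583 or more, did not overlap these, and the difference was 1.60 on the log2 scale in NT (SE 0.26, edgeR adjusted p = 0.000223) and 1.93 in RT (SE 0.26, adjusted p = 4.40e-05). Ifitm2 held 718 to 963 CPM in MC38 NT and 384 to 533 in Panc02-SIY NT (0.90, SE 0.13, edgeR adjusted p = 2.24e-05). Its RT ranges, 694 to 916 and 385 to 550, did not overlap either (0.89, SE 0.13, edgeR adjusted p = 2.96e-05). Ifitm1 varied more between libraries, at 103, 404, 32.2 and 260 CPM in MC38 NT against 34.5, 77.2, 32.4 and 19.95 in Panc02-SIY NT, and the groups overlapped. It was called in NT (2.28, SE 0.84, edgeR adjusted p = 0.048) but not in RT (1.69, adjusted p = 0.123). The NT call ended without MC38 replicate 2 (1.71, edgeR adjusted p = 0.135) and without Panc02-SIY replicate 3 (2.18, adjusted p = 0.106) or 4 (1.90, adjusted p = 0.142), and the RT difference was called without MC38 RT replicate 3 (1.97, adjusted p = 0.0972). Ifitm6 was near its floor in these cells, at most 15.7 CPM, and was not called.

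Ly6c2, the monocyte antigen gene, was higher in MC38 macrophages under both treatments. It held 353, 233, 346 and 242 CPM in MC38 NT and 9.40 to 41.8 in Panc02-SIY NT, and 607, 477, 217 and 348 in MC38 RT against 32.3 to 85.9 in Panc02-SIY RT. Neither pair of groups overlapped, and the differences were 3.50 (SE 0.44, edgeR adjusted p = 3.86e-05) and 2.72 (SE 0.41, adjusted p = 0.000196). Ly6a in Panc02-SIY held 260, 543, 295 and 323 CPM in NT and 288, 391, 313 and 415 in RT, all below the MC38 values of the same treatment (1.43, SE 0.28, edgeR adjusted p = 0.000962, and 1.97, SE 0.28, adjusted p = 8.00e-05). Ly6i was low and spread, at 15.3 to 53.2 in MC38 NT and 1.11 to 18.8 in Panc02-SIY NT, which overlapped (3.20, SE 1.02, edgeR adjusted p = 0.025), and 40.8 to 272 against 8.85 to 37.5 in RT, which did not (2.50, SE 0.81, adjusted p = 0.0271). Panc02-SIY replicate 4 of each treatment decided its call, since without it the NT difference was 2.10 (edgeR adjusted p = 0.161) and the RT difference 2.00 (adjusted p = 0.109). Ly6e went the other way, at 1154, 1274, 1336 and 1297 in MC38 NT and 1084, 2030, 2039 and 1626 in Panc02-SIY NT (-0.43, SE 0.16, edgeR adjusted p = 0.0368). That call ended without MC38 replicate 1 (-0.38, edgeR adjusted p = 0.101) and without Panc02-SIY replicate 2 (-0.33, adjusted p = 0.129) or 3 (-0.34, adjusted p = 0.122). It also ended with classes from graph clusters (-0.06, edgeR adjusted p = 0.782). In RT the Ly6e difference of -0.37 had an edgeR adjusted p of 0.0676 but did not reach the fold limit. It was called without MC38 replicate 2 (-0.47, edgeR adjusted p = 0.0391) or 4 (-0.40, adjusted p = 0.0935) and without Panc02-SIY replicate 1 (-0.43, adjusted p = 0.0544), 2 (-0.43, adjusted p = 0.0623) or 3 (-0.39, adjusted p = 0.0947).

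**Figure D4:**
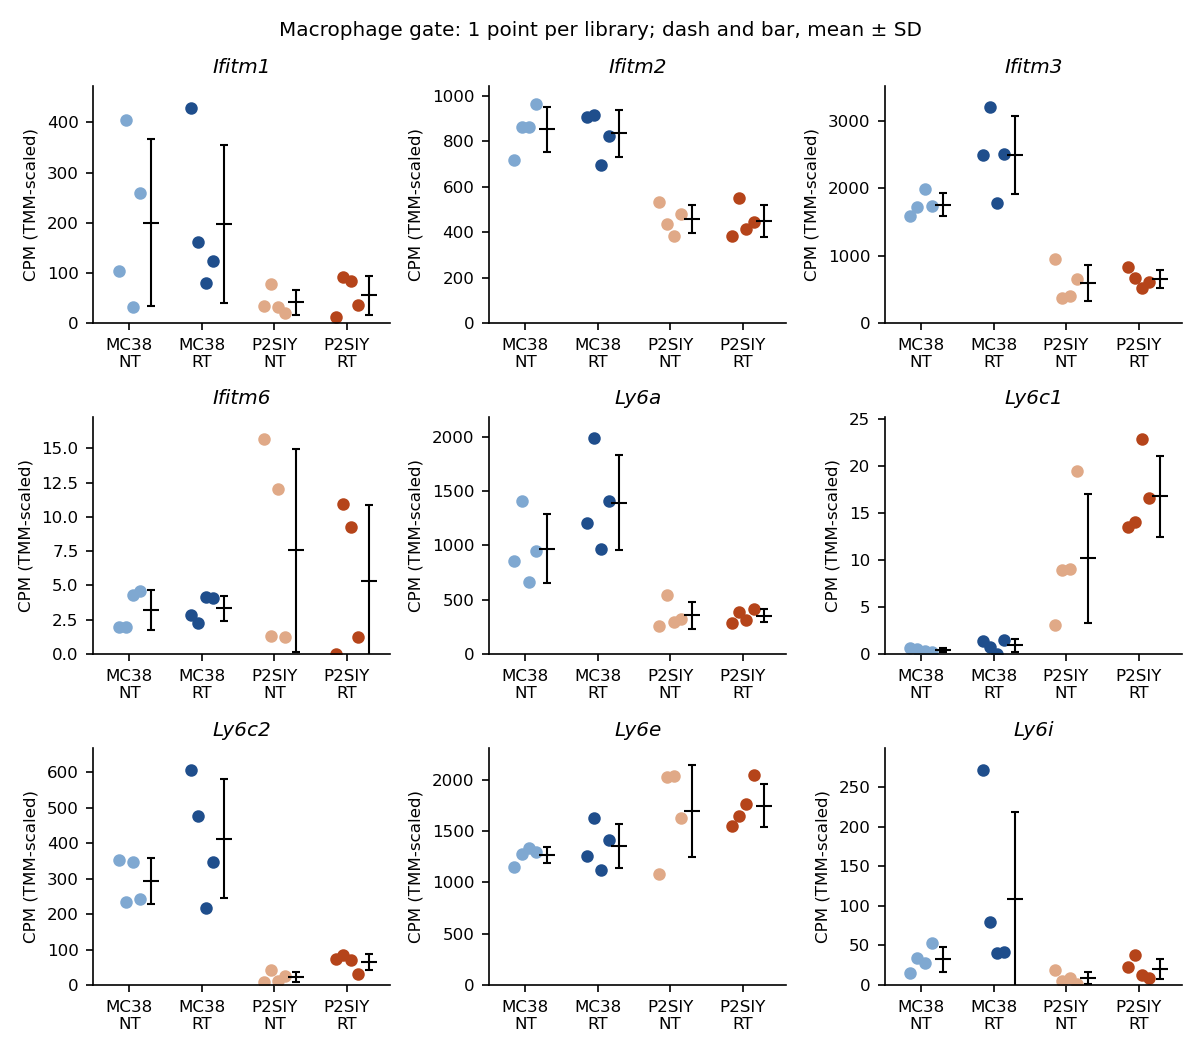
TMM-scaled CPM of the 9 members in the macrophage gate, 1 point per library, by group. For Ifitm2, Ifitm3, Ly6a and Ly6c2 the MC38 points lie above the Panc02-SIY points of the same treatment without overlap, and for Ly6c1 below them.

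In the macrophage gate Ly6c1 was the member with the largest deficit in MC38, and it came from few barcodes. It held 0.164 to 0.652 CPM in MC38 NT and 0 to 1.53 in MC38 RT, with 1, 2 or 6 UMIs in a library that had any, against 3.13, 8.95, 9.04 and 19.5 CPM (1, 21, 12 and 210 UMIs) in Panc02-SIY NT and 13.5, 14.1, 22.9 and 16.6 CPM (6, 18, 37 and 109 UMIs) in RT. The fitted differences were -5.06 (SE 0.53, edgeR adjusted p = 3.49e-07) and -4.07 (SE 0.51, adjusted p = 4.16e-06). Of the 414 Ly6c1 UMIs in the Panc02-SIY macrophage gate, 388 (93.7%) lay in 64 of its 2676 barcodes, those in the clusters led by non-leukocyte genes. The main cluster of these, led by Mgp, Nfib, Cp and Tm4sf1 (named after their values were seen), held 132 CPM of Ly6c1, and 1.23 and 1.13 were found in the main Panc02-SIY macrophage clusters. Its median depth was 41430 UMIs and its level of Ptprc, the gene of CD45, was 33.2 CPM. In the Panc02-SIY macrophage gate 201 of 244 Ly6c1 UMIs in NT and 157 of 170 in RT lay in barcodes without a UMI of the endothelial genes Pecam1, Cdh5, Kdr and Emcn. The cell type of the barcodes with Ly6c1 was not tested. Without the non-leukocyte clusters Ly6c1 did not pass the filter on low counts, so the call ended. Its median in Panc02-SIY went from 9.70 to 1.052 CPM in NT and from 15.99 to 2.04 in RT. The other member calls in macrophages held, among them 2.16 for Ifitm3 in NT (SE 0.20, edgeR adjusted p = 1.62e-07) and -0.57 for Ly6e in NT (adjusted p = 0.00159), and the Ly6e difference in RT was then called (-0.51, adjusted p = 0.0038).

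The macrophage gate drew on different graph clusters in the 2 tumors. In MC38 60.5% of its NT and 59.2% of its RT barcodes lay in a cluster led by Arg1, Ccl12, Apoe and Trem2, and in Panc02-SIY 58.3% and 45.1% lay in a cluster led by Ccl8 and Mmp13, whose median depth was 1048 UMIs. The cluster led by Arg1 held 611 gated MC38 barcodes and 21 of Panc02-SIY (6 NT and 15 RT). Pooled levels there, MC38 first, were 1976 and 1515 CPM for Ifitm3, 1067 and 683 for Ly6a and 307 and 171 for Ly6c2. They were 47.5 and 39.4 for Ly6i, 163 and 372 for Ifitm1, 842 and 933 for Ifitm2 and 1281 and 1532 for Ly6e. These gaps within the cluster were not tested. The macrophage markers summed to 25310 to 31270 CPM in MC38 and 10970 to 16670 in Panc02-SIY, and the monocyte markers to 1341 to 2276 in MC38 and 354 to 2276 in Panc02-SIY. Their part in the differences was not tested. Over macrophage barcodes with at least 1000 UMIs, each thinned to 1000, the share with a UMI of Ifitm3 was 63.4% in MC38 NT and 71.0% in MC38 RT. In Panc02-SIY it was 26.6% in NT and 32.5% in RT. Unthinned shares, over all barcodes of the gate, were 89.4%, 89.9%, 51.1% and 58.3%. Barcodes below 1000 UMIs are in the unthinned shares only, and the main Panc02-SIY cluster had a median depth near that limit. Thinned shares for Ly6c2 were 12.8%, 16.6%, 1.53% and 3.103%, against 45.0%, 56.5%, 5.88% and 7.93% unthinned. Regulatory T cells of Panc02-SIY held 7.61% and 8.82%, thinned 3.12% and 2.67%, at median depths of 4967 and 4328 UMIs. Their median Ly6c2 was 52.7 CPM in NT and 18.7 in RT, beside 20.6 and 76.5 in macrophages. They therefore give no background level for the macrophage shares of Ly6c2. For Ly6e the thinned shares were 61.7%, 57.9%, 77.4% and 79.4%.

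In monocytes the order of the tumors depended on the member. Ifitm6 was lower in MC38 before and after radiation, while Ifitm1, Ifitm2, Ifitm3 and Ly6a were called higher in MC38 after radiation. They were not called before it, and none of the 4 was called in the test of the difference itself. Ifitm6 held 299, 162 and 80.3 CPM in MC38 NT and 826, 691, 682 and 674 in Panc02-SIY NT, without overlap (-1.92, SE 0.41, edgeR adjusted p = 0.00592), where 22% of monocyte genes were called. The MC38 RT libraries held 250, 457, 398 and 144, overlapping those of Panc02-SIY RT at 573, 782, 627 and 379 (-0.91, SE 0.34, edgeR adjusted p = 0.061, with 32.8% of genes called). Ifitm3 held 5665, 8010, 5901 and 5824 in MC38 RT, above each of the Panc02-SIY RT libraries (0.71, SE 0.15, edgeR adjusted p = 0.00105), and 4754, 6420 and 4349 in MC38 NT, which overlapped Panc02-SIY NT (-0.11). Ly6a held 657 to 974 in MC38 RT and 311, 298, 259 and 598 in Panc02-SIY RT, without overlap (1.17, SE 0.41, edgeR adjusted p = 0.0562). In NT it held 493 to 580 and 19.2 to 399, also without overlap, but was not called (1.22, edgeR adjusted p = 0.115). It was called without Panc02-SIY NT replicate 1 (0.92, edgeR adjusted p = 0.0457) or 2 (1.56, adjusted p = 0.0552). Ifitm2 was called in RT (0.53, SE 0.17, edgeR adjusted p = 0.0228), as was Ifitm1 (1.62, SE 0.66, adjusted p = 0.0981). Before radiation Ifitm2 was lower in each MC38 library than in every Panc02-SIY library and was not called (-0.43, edgeR adjusted p = 0.123), though it was without Panc02-SIY NT replicate 1 (-0.54, adjusted p = 0.0722). Ly6c2, the gene of the monocyte antigen itself, held 1945, 4480, 2049 and 3219 in MC38 RT and 1515 to 1605 in Panc02-SIY RT, without overlap, and was not called (0.91, SE 0.39, edgeR adjusted p = 0.110). It was called without MC38 RT replicate 1 (1.047, edgeR adjusted p = 0.0924) or 3 (1.053, adjusted p = 0.0959). Ly6i varied most between libraries, at 55.0, 431 and 1446 in MC38 NT and 113 to 258 in Panc02-SIY NT (1.69, edgeR adjusted p = 0.154), and was called without the lowest of these, MC38 NT replicate 2 (2.25, adjusted p = 0.0176).

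**Figure D5:**
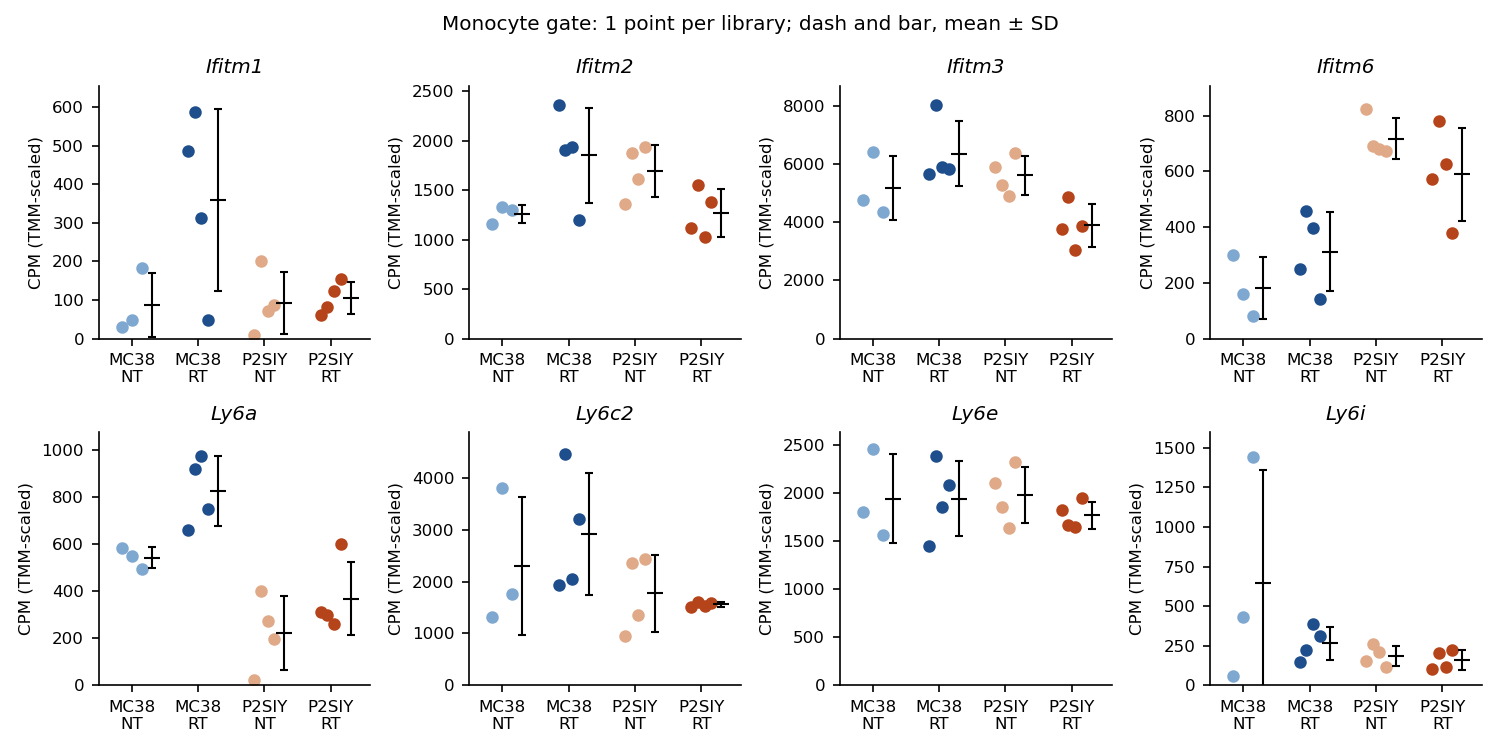
TMM-scaled CPM of 8 members in the monocyte gate, 1 point per library, by group (3 libraries in MC38 NT, 4 in the others). Ifitm6 lies lower in MC38, between 80.3 and 457 CPM against 379 to 826 in Panc02-SIY, and Ly6a lies higher in MC38 within each treatment.

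The 5 monocyte calls after radiation differed in how often they held, and only 15 of the 17 alternatives run in macrophages could be tested in monocytes. Ifitm3 was called in 15 of 15 alternatives and with each of 8 libraries left out, and Ifitm2 in 11 of 15 and 8 of 8. Ly6a was called in 13 of 15 and 3 of 8, Ifitm6 in 10 of 15 and 4 of 8, and Ifitm1 in 4 of 15 and 1 of 8. The Ifitm1 call ended whenever any of 7 libraries was left out: replicate 1 (1.47, edgeR adjusted p = 0.165), 2 (1.17, adjusted p = 0.293) or 3 (1.67, adjusted p = 0.156) of MC38 RT, or replicate 1 (1.45, adjusted p = 0.188), 2 (1.52, adjusted p = 0.180), 3 (1.71, adjusted p = 0.146) or 4 (1.87, adjusted p = 0.103) of Panc02-SIY RT. The Ifitm6 call ended without MC38 RT replicate 1 (-0.85, edgeR adjusted p = 0.118) or 4 (-0.63, adjusted p = 0.111) and without Panc02-SIY RT replicate 2 (-0.76, adjusted p = 0.134) or 3 (-0.88, adjusted p = 0.106). The Ly6a call ended without MC38 RT replicate 2 (1.12, edgeR adjusted p = 0.117) or 3 (1.08, adjusted p = 0.122) and without Panc02-SIY RT replicate 1 (1.09, adjusted p = 0.116), 2 (1.07, adjusted p = 0.123) or 3 (1.03, adjusted p = 0.134). Without the non-leukocyte clusters Ifitm1 (edgeR adjusted p = 0.171), Ifitm2 (adjusted p = 0.102) and Ifitm6 (adjusted p = 0.113) were not called. The gate lay mostly in macrophage-led clusters in MC38 (54.7% of NT and 42.2% of RT barcodes in the cluster led by Arg1) and in a cluster led by Chil3, Ifitm6, F13a1, Gda and Plac8 in Panc02-SIY (92% and 93.3%). Macrophage markers summed to 2399 to 7586 CPM in the MC38 monocyte gate and 812 to 1717 in the Panc02-SIY one, while monocyte markers summed to 8967 to 11920 and 9631 to 11300. Their part in the differences was not tested.

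In NK cells, Ly6e was the member called, and it was higher in irradiated MC38 than in irradiated Panc02-SIY. Other members were called there in single alternatives, such as Ly6c2 between irradiated tumors when MC38 RT replicate 2 was left out (-2.03, edgeR adjusted p = 0.0303). Ly6e held 865, 806 and 1158 CPM in MC38 RT and 370, 395, 481 and 570 in Panc02-SIY RT, without overlap (1.07, SE 0.18, edgeR adjusted p = 3.41e-05), where 15% of NK genes were called. Before radiation, where 5.2% were called, the MC38 libraries held 691, 525 and 764 and those of Panc02-SIY 555, 666, 653 and 718, which overlapped, with a difference of 0.05. Of the Panc02-SIY RT libraries 3 of 4 were lower than every NT library (-0.51, SE 0.15, edgeR adjusted p = 0.136). That effect was called in 11 alternatives (-0.58 to -0.45, adjusted p from 0.0216 to 0.0971), among them DESeq2, the stricter gate, graph clusters and thinned counts. The MC38 RT libraries were each higher than every MC38 NT library (0.51, SE 0.21, edgeR adjusted p = 0.561). The test of the difference between these radiation effects gave 1.02 (SE 0.26, edgeR adjusted p = 0.228). It was called without MC38 NT replicate 4 (1.2, edgeR adjusted p = 0.0705), MC38 RT replicate 3 (1.195, adjusted p = 0.0715) or Panc02-SIY RT replicate 4 (1.21, adjusted p = 0.0531), and without the last of these the Panc02-SIY effect of radiation was called as well (-0.67, adjusted p = 0.0383). Macrophage markers in the NK gate summed to 385 to 1146 CPM in MC38 and 21.3 to 242 in Panc02-SIY, and the NK gate held 36 and 65 barcodes in MC38. Of these 36.1% in NT and 55.4% in RT lay in a cluster led by Txk and mitochondrial genes with a median depth of 1090 UMIs, and most of the rest in the cluster led by Klra8 and Klrb1c that held 83.3% of NT and 90.4% of RT NK barcodes in Panc02-SIY. The part of these values in the result was not tested.

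No member's radiation effect was called as different between the tumors. Of 23 pairs 0 were called by edgeR, where 0.00847% of all gene and class pairs were (0% in macrophages and NK cells and 0.0368% in monocytes), 3 had an unadjusted p below 0.05, and DESeq2 called 1, NK cell Ly6e. The other 2 pairs with a low unadjusted p were monocyte Ifitm2 (0.96, SE 0.25) and monocyte Ifitm3 (0.82, SE 0.22), each at an edgeR adjusted p of 0.604. Of all genes, 464 of 10108 in macrophages, 329 of 5439 in monocytes and 633 of 8073 in NK cells had an unadjusted edgeR p below 0.05. Ifitm2 and Ifitm3 in monocytes had positive radiation effects in MC38 (0.54 and 0.29) and negative ones in Panc02-SIY (-0.42 and -0.53), none of them called.

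A list of 40 interferon-stimulated genes was followed beside the members. In MC38 macrophages 21 of its 39 tested genes rose with radiation (53.8%, with 10.7% of all genes called, median log2 fold change 0.58), led by Mx1 (1.14, SE 0.29, edgeR adjusted p = 0.0249), Ifit2 (1.02) and Ifit1 (0.92), antiviral effectors. The 9 members there had a median of 0.47 and no call. In Panc02-SIY macrophages 4 of 39 rose (10.3%, with 2.84% of all genes called, median 0.46), led by Oas3 (1.38), Usp18 (1.12) and Isg15 (0.75), beside 0.29 for the members. In DC1, 2 of 18 tested rose (11.1%, with 1.13% of all genes called), Stat2 (1.48) and Bst2 (1.23), with a median of 0.67 against 1.14 for the 6 members tested. Between untreated tumors 27 of 39 were higher and 3 lower in MC38 macrophages (76.9%, with 42.9% of all genes called, median 1.14), with Usp18 (2.58), Ifi27l2a (2.55) and Oas3 (2.52) the largest and Gbp7 (-1.01) and Iigp1 (-0.94) among the lower ones. In irradiated tumors 30 of 39 were higher and 2 lower, with the same median of 1.14 (82.1%, with 44.7% of all genes called). In monocytes none of the 39 genes tested was called by radiation in either tumor, and 23 were higher in MC38 in NT (59.0%, with 22% of all genes called) and 24 in RT (61.5%, with 32.8%). The monocyte radiation effect on Ifi44 was called as different between the tumors, by -5.98 (SE 1.15, edgeR adjusted p = 0.046). Its means were 43.1 CPM in MC38 NT, 7.18 in MC38 RT, 0.622 in Panc02-SIY NT and 19.3 in Panc02-SIY RT. The Panc02-SIY NT group was near the floor, with an SD of 1.24, so the size of this difference is uncertain. In CD8 T cells of Panc02-SIY 3 of 38 rose with radiation (7.89%, with 5.73% of all genes called), Mx1 (1.78), Cxcl10 (1.3) and Dhx58 (0.76), while the members had a median of -0.04. Medians over all genes tested lay within 0.04 of 0 outside NK cells.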

How the data were processed

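The deposited files hold raw UMI counts per gene and barcode, which the authors made from 10x 3′ v3.0 libraries with Cell Ranger 3.1.0 and mm10, per the submitters' processing notes. Members and gene lists were chosen with earlier results of these data known. Barcodes shared between libraries of a tumor were kept only where they had most UMIs. Classes were gated at 3 of 8 markers with a lead of 2. Counts were summed per library and class where a library had at least 10 barcodes, and a comparison needed 3 libraries per group. All 4 groups entered 1 edgeR 4.0.16 quasi-likelihood fit per class (R 4.3.3, TMM, filterByExpr with a minimum count of 10), adjusted by Benjamini-Hochberg over all genes tested, with calls at p under 0.1 after adjustment and past a fold of 1.3, limits taken from the study's methods. The step was tested on simulated counts. Alternatives were DESeq2 1.42.0, other scalings, gates and filters, graph clusters (scanpy 1.11.5, 30 components, 20 neighbors, 2000 variable genes, resolution 1), thinning to 1000 UMIs, a replicate block, leaving out each library, and removal of doublets. Scrublet's own threshold marked under 0.5% of barcodes, so that alternative removed the 5% with the highest scores in each library, 1046 in all, and doublets otherwise stayed in. Removal of the non-leukocyte clusters was chosen after seeing the data. Named genes are the 9 members in every class, up to 3 called interferon-stimulated genes with the largest change per comparison in macrophages, monocytes and CD8 T cells, and the radiation check genes. Other genes, including Stat2, Bst2 and the marker genes given beside the DC1 and Ly6c1 results, were named after their values were seen. Replicate numbers were taken to pair libraries where every pair's deviations correlated above 0.1, which held in Panc02-SIY macrophages (r of 0.167 to 0.488 in 4 of 4 pairs), and there the blocked fit changed no member call. Gene ends and coordinates are from GENCODE vM21, and promoter sequence from RefSeq. The values of 1 interferon-stimulated gene are not reported here.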

Additional observations from a re-analysis of the deposited data

Results flagged for a closer look

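In 13 of 142 groups of 4 libraries, 1 library lay so far from the other 3 that the gap to its nearest neighbor, as a share of the whole range, passed Dixon's 95% limit, where about 1 in 20 groups (7.1 here) would by chance. All values are TMM-scaled CPM.

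In myeloid gates, Ifitm3 in the monocyte gate of MC38 RT replicate 2 stood at 8010 beside 5665 to 5901. Ifitm6 in the monocyte gate of Panc02-SIY NT replicate 1 stood at 826 beside 674 to 691. Ly6a in the monocyte gate of Panc02-SIY RT replicate 4 stood at 598 beside 259 to 311. Ly6i in the macrophage gate of MC38 RT replicate 1 stood at 272 beside 40.8 to 79.5. Ly6c2 in the neutrophil gate of Panc02-SIY NT replicate 2 stood at 202 beside 145 to 152.

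In lymphocyte gates of Panc02-SIY, RT replicate 2 of other T cells held 2215 of Ifitm1 beside 108 to 392 and 1094 of Ifitm2 beside 191 to 287. Ifitm1 in the NK gate of NT replicate 2 stood at 220 beside 16.1 to 47.5. Ly6c2 of NT replicate 4 of other T cells stood at 880 beside 1354 to 1393, and Ly6c1 of NT replicate 1 stood at 11.5 beside 1.85 to 2.62. The remaining libraries concern levels of a few UMIs. Ifitm6 in the CD8 T cell gate of NT replicate 1 stood at 2.88 beside 0.364 to 0.728, and Ifitm6 in the conventional CD4 T cell gate of NT replicate 4 stood at 47.0 with the others at 0. Ly6c1 in the conventional CD4 T cell gate of RT replicate 4 stood at 0 beside 3.51 to 4.13.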

How the results depend on the processing

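Of the 24 member and class pairs called, none changed direction in any alternative or with any library left out, where it could be tested. In such fits 27 of 376 alternative values and 27 of 184 values with a library left out were no longer called. Fits in which a called pair could not be tested are in neither count, although its call ended there too. Macrophage Ly6c1 without the non-leukocyte clusters is an example. The radiation count in MC38, 0 as reported, was 1 under the replicate block, graph clusters and a fit of only the groups compared. That in Panc02-SIY, 3 as reported, was 6 with no filter on low counts, 7 by DESeq2, 5 without doublets, 5 with thinned counts, 1 with the stricter gate, 1 with graph clusters, 1 with the cell filter, 1 with at least 20 barcodes, and 1 to 6 with a library left out. The stricter gate, the cell filter and the minimum of 20 barcodes left DC1 with too few libraries to test. The difference of radiation effects, 0 as reported, gave 1 with no filter, by DESeq2, without doublets, with thinned counts and at most with a library left out (0 to 1). The counts between tumors were 7 to 11 in NT and 10 to 12 in RT with a library left out, and 6 in RT with at least 20 barcodes. Thinned shares of macrophage barcodes with a UMI of Ifitm3 were 63.4%, 71.0%, 26.6% and 32.5% in MC38 NT, MC38 RT, Panc02-SIY NT and Panc02-SIY RT. Scaling by library size alone put the median log2 fold change of all genes as far as -0.27, in monocytes between irradiated tumors, from -0.03 as reported. It turned no called member. Beyond these, the causes of the changes were not tested.

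With the replicate block the radiation count was 6 in Panc02-SIY and the difference of radiation effects 1, NK cell Ly6e (0.96, edgeR adjusted p = 0.0685). The MC38 call under the block was macrophage Ly6a (0.52, edgeR adjusted p = 0.0156), where same-numbered libraries correlated at -0.0278 to 0.0713. In Panc02-SIY NK cells each library correlated best with its own number, a hint from the data, but 1 of the 4 pairs stood at 0.0988 (the others at 0.247 to 0.499). There the block called Ly6e (-0.52, adjusted p = 0.0216) and Ifitm2 (-1.02, adjusted p = 0.0716) lower in RT. Apart from Panc02-SIY macrophages, no class and tumor with 3 or more pairs had all correlations above 0.1. In MC38, neutrophils, DC1 and B cells held too few barcodes to test.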

Other observations

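Dendritic cells other than DC1 were too few to test, and their pooled levels are given as values. In mregDC of Panc02-SIY, 33 NT and 54 RT barcodes, Ifitm1 held 18.0 CPM (6 UMIs) in NT and 424 (246 UMIs) in RT, and Ifitm3 held 98.9 (33 UMIs) and 534 (310 UMIs), while Ly6a held 27.0 and 22.4. The share of mregDC barcodes with a UMI went from 15.2% to 44.4% for Ifitm1 and from 36.4% to 68.5% for Ifitm3. In mregDC of MC38, 11 and 12 barcodes, Ifitm3 held 78.3 and 1630 CPM, with 35.7% of the 283 RT UMIs in 1 barcode. Type 2 dendritic cells of irradiated Panc02-SIY, 38 barcodes, held 3300 CPM of Ifitm3, 2003 of Ifitm1 and 1425 of Ly6a. Plasmacytoid dendritic cells of Panc02-SIY, 11 and 8 barcodes, held 1432 and 2121 CPM of Ly6c2 and 34.1 and 466 of Ifitm3.

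Of 16 other Ly6 and Ifitm genes, only Ifitm10, Ly6k, Ly6g5b and Ly6d passed the filter on low counts in any class. None did in macrophages, monocytes, neutrophils or DC1. Among those tested, Ifitm10 in NK cells was the only one called. It was lower in irradiated MC38 than in irradiated Panc02-SIY (-0.99, SE 0.37, edgeR adjusted p = 0.0776), where 15% of NK genes were called. Ly6d was highest in plasmacytoid dendritic cells at 1461 CPM, and Ly6g, the antigen used to mark neutrophils, held 55 UMIs over all kept barcodes. Barcodes that met no gate held a median of 30.3 CPM of Ly6c1 in untreated Panc02-SIY, with a range of 2.14 to 94.2 over libraries.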
